A study of Mus musculus with 8 samples.

Results

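The collagen genes of mouse were described in RNA from skin keratinocytes of 4 control and 4 knockout libraries. Members were taken by name: every gene symbol of the count tables made of Col, a number, a and a number, apart from Col17a1 and Col7a1, which gave 42 of 24421 symbols. All libraries came from InvEE mice, in which the involucrin promoter drives an activated form of the kinase MEK1 in the suprabasal epidermis, on a CBA x C57Bl/6J background and with both Hmgb1 alleles floxed (HMGB1 fl/fl). Controls lacked the Cre transgene (K5 Cre-) and knockouts carried it (K5 Cre+), so that recombination was driven by the keratin 5 promoter of basal keratinocytes. Age and treatment of the mice are not stated in the sources at hand. Because Cre was present in knockouts only, Cre and the loss of Hmgb1 cannot be told apart. The labels number the replicates without saying that each was a separate mouse, so p-values measure the spread between libraries.

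Collagens are secreted or membrane proteins built from 3 chains wound into a triple helix. Fibrillar collagens form the fibres of the dermis and are made mainly by fibroblasts. Network-forming type IV collagens are the scaffold of basement membranes, including the one on which basal keratinocytes sit, and keratinocytes contribute to it. The remaining members decorate fibrils (fibril-associated), form beaded filaments (type VI), build hexagonal sheets (type VIII) or span the plasma membrane. They were grouped here as 11 fibrillar, 8 basement membrane (type IV with types XV and XVIII) and 23 other collagens.

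Libraries held 30506676 to 34229030 counts on genes, so that a level of 1 CPM, the count scaled to library size, stood for 27.9 to 35.8 counts. Hmgb1 was at 565.5 to 615.0 CPM across controls and 113.4 to 126.2 CPM in knockouts, in the direction of the labels. The keratins Krt5 and Krt14, which define basal keratinocytes, were at 20776 to 26103 and 15323 to 19241 CPM over the 8 libraries. Of 10 keratinocyte markers 3 rose in the knockout, beside 4.33% called higher over all tested genes. These were Krt10, a keratin of suprabasal cells, 1.77-fold (edgeR adjusted p = 0.01693), Cdh1 1.59-fold (0.03713) and Perp 1.37-fold (0.03216), both of cell junctions. The other 7 were not called, and 3 of them (Krt14, Krt15 and Trp63) had a negative log2 fold change. The part of the 3 called markers in the collagen differences was not tested. Control replicates 2 and 3 and knockout replicate 1 carried Y-linked transcripts (6110 to 6743 counts over 4 genes), and the other 5 libraries, called Y-negative here, 0 to 51 counts. The sexes were thus not balanced between the genotypes.

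Per length of transcript, the highest of the 42 members were a transmembrane, a basement membrane and a fibril-associated collagen, and the classical dermal collagens ranked far below. Col17a1 and Col7a1, which the choice by name leaves out, were higher still in CPM, at 5428 ± 255 and 699 ± 98.2 in controls (SD, n = 4). In knockouts Col17a1 was at 5703 ± 654 CPM and was not called (SD, n = 4, edgeR adjusted p = 0.7207). Col7a1 was at 496 ± 17.2 CPM in knockouts and was called lower (SD, n = 4, log2 -0.49, edgeR adjusted p = 0.02231). Col23a1, a transmembrane collagen of epithelia, was at 45.6 ± 17.5 CPM per kb across controls and 51.3 ± 11.7 in knockouts (SD, n = 4 each). Col18a1, a heparan sulfate-bearing collagen of basement membranes and the precursor of endostatin, was at 43.0 ± 7.49 and 38.6 ± 4.55 CPM per kb. Col16a1, fibril-associated, was at 36.3 ± 6.73 and 32.1 ± 3.85 CPM per kb (SD, n = 4 each). In controls the spreads of these 3 levels overlap, whereas in each of the 4 knockout libraries Col23a1 was above Col16a1. Next in controls were Col12a1 at 13.4 ± 5.63, Col4a6 at 8.26 ± 1.24, Col6a1 at 7.97 ± 0.424 and Col4a5 at 7.52 ± 0.689 CPM per kb, of which the last 3 overlap in their spread. Col8a2 (3.93 ± 1.01), Col4a1 (2.39 ± 0.369) and Col4a2 (2.33 ± 0.365) followed. In contrast, the chains of type I collagen were at 0.521 ± 0.191 (Col1a1) and 0.813 ± 0.186 CPM per kb (Col1a2), and that of type III (Col3a1) at 0.286 ± 0.119 CPM per kb in controls. Lengths are those of the longest annotated coding transcript, which need not be the one counted.

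**Figure D1:**
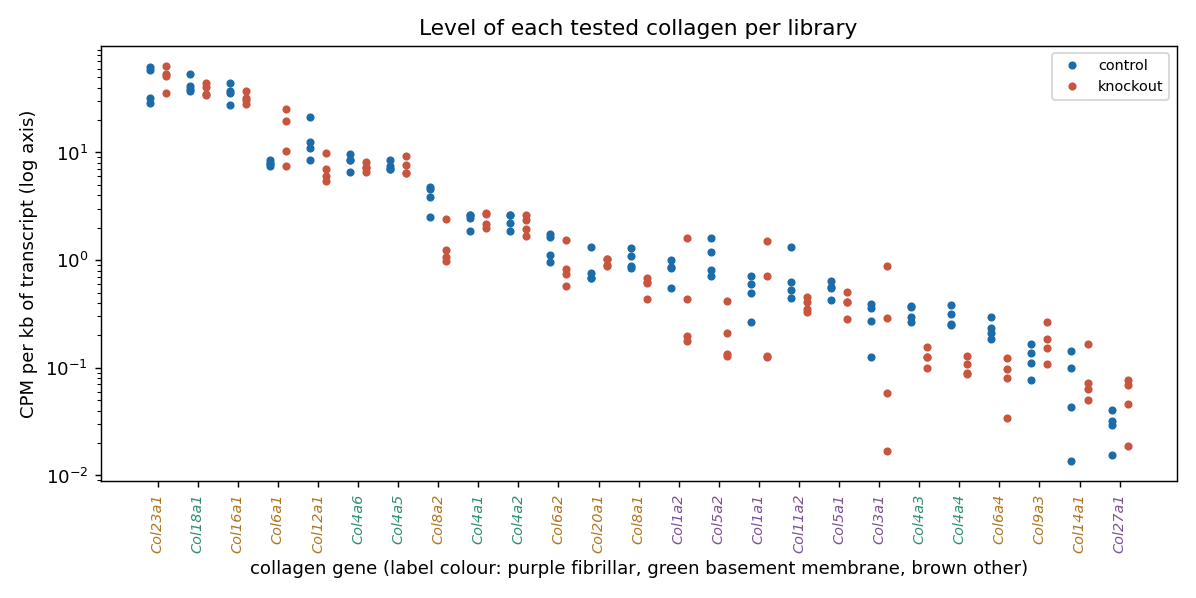
Level of the 25 tested collagens in each library, in CPM per kb of transcript on a log axis, with control libraries in blue and knockout libraries in red. Genes are ordered by mean level, from Col23a1 to Col27a1. Col6a4, Col8a2, Col5a2, Col4a3 and Col4a4 have all red points below all blue points, as has Col8a1, while Col1a1, Col1a2 and Col3a1 spread most widely among the red points.

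In the comparison of knockout with control, 25 of the 42 collagens had enough counts to be tested, and 6 of these were lower and 0 higher in the knockout. The 6 were Col4a3 and Col4a4 of the basement membrane group, the fibrillar Col5a2, and Col6a4, Col8a1 and Col8a2 of the others. Their fold changes ran from 1.74-fold lower (Col8a1) to 4.79-fold lower (Col5a2). Over all 13016 tested genes, 4.54% were called lower and 4.33% higher by an adjusted p below 0.05 (quasi-likelihood test of edgeR, Benjamini-Hochberg adjusted over all tested genes). The same 6 collagens, and no others of the 25, had all knockout libraries below all control libraries, and 0 had them all above. Over all tested genes these shares were 9.00% and 7.95%. The median log2 fold change was -0.17 over the 25 tested collagens and -0.02 over all tested genes. An unadjusted edgeR p under 0.05 was found for 9 of the 25 collagens and for 3412 of all 13016 tested genes. A gene can pass the filter on low counts through 1 group alone, so the tested members are not a sample of all 42. The number called lower dropped to 3 when control replicate 2, knockout replicate 2 or knockout replicate 4 was left out, and in each of these fits the calls of Col6a4, Col8a1 and Col8a2 were lost. With DESeq2, 8 collagens were lower and 1 higher. Over all genes DESeq2 called 917 lower and 1093 higher, against 591 and 563 in the main fit.

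**Figure D2:**
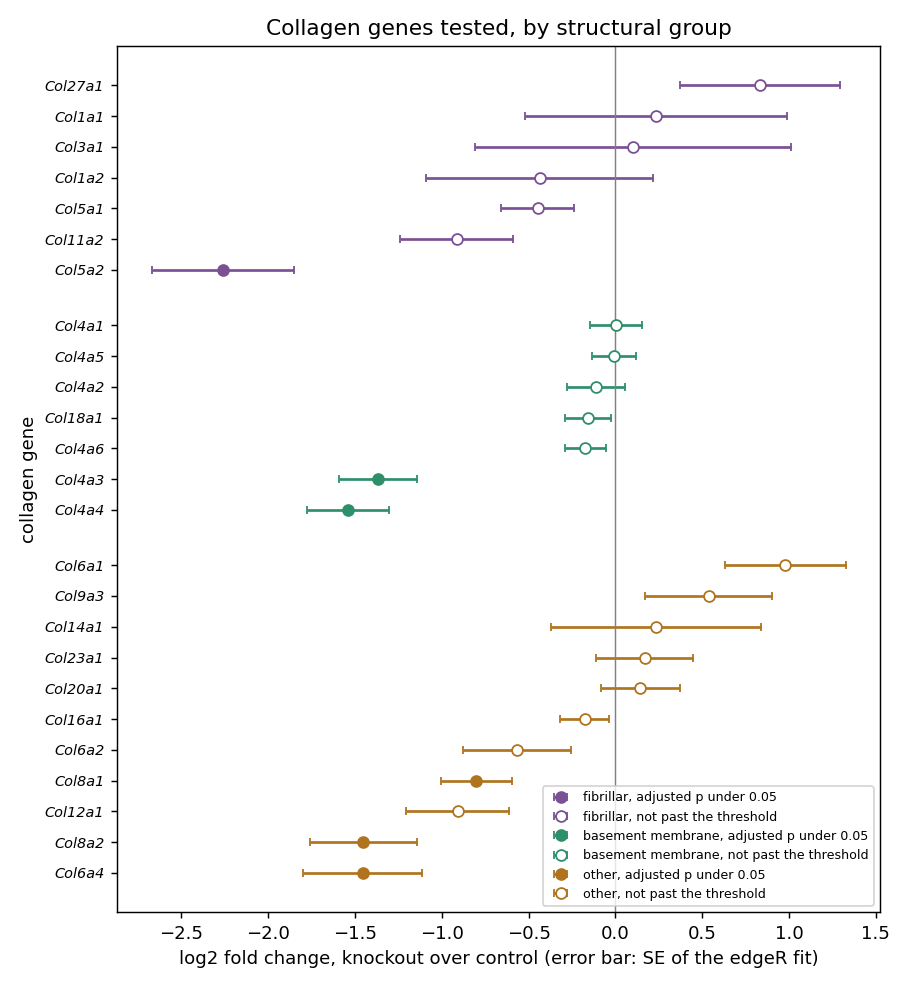
Log2 fold change of the 25 tested collagens, knockout over control, with the standard error of the edgeR fit as error bars and genes grouped as fibrillar (purple), basement membrane (green) and other (brown). Filled points passed an adjusted p of 0.05. All 6 filled points lie left of 0, from -2.26 (Col5a2) to -0.80 (Col8a1), and Col6a1 lies farthest to the right, unfilled, at 0.98.

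Within the basement membrane group the paired chains Col4a3 and Col4a4 fell, and the more abundant type IV chains did not pass the test. These chains assemble with that of Col4a5 into a network best known from the glomerulus of the kidney, whereas the epidermal basement membrane is known for the chains of Col4a1 and Col4a2 and of Col4a5 and Col4a6. Col4a4 (chromosome 1, 82448423 to 82586849, minus strand, mm10) was at 3.88, 3.23, 2.56 and 2.54 CPM in control replicates 1 to 4. It was at 0.895, 1.31, 1.10 and 0.884 CPM in knockout replicates 1 to 4. Every knockout was thus under every control, with a log2 fold change of -1.54 (SE 0.24, 2.91-fold lower, edgeR adjusted p = 0.005688). Col4a3 (chromosome 1, 82586921 to 82722059, plus strand) was at 3.24, 3.13, 2.53 and 2.28 CPM across controls and at 1.32, 1.08, 1.07 and 0.852 CPM in knockouts. Again the groups did not overlap, and its log2 fold change was -1.37 (SE 0.22, 2.58-fold lower, edgeR adjusted p = 0.006872). Both calls held in all 21 alternative fits, with adjusted p of at most 0.03966 for Col4a3 and 0.03432 for Col4a4. Of the annotated exons of Col4a3, 563 bases (5.65%) overlap the gene C430014B12Rik, and the strand setting of the counts is not known.

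Both genes start back to back, with 71 bases between their annotated starts, and these bases are shown because the pair fell together. In GENCODE M21, 2 other type IV pairs are arranged in this way: Col4a1 and Col4a2 on chromosome 8, whose first exons overlap by 22 bases, and Col4a6 and Col4a5 on the X chromosome, with 1308 bases between starts. Neither of those pairs was called. For comparison, the bases upstream of Col4a6 and Col4a5 are also given, each cut where an annotated exon begins. Sequences are from RefSeq (GRCm38.p6, the assembly of mm10), in which 33 of the 42 members had an entry, and each runs in the direction of its gene. Capitals mark GC boxes (GGGCGG or its reverse complement CCGCCC).
Col4a4 to Col4a3, chr1:82586850-82586920, minus strand: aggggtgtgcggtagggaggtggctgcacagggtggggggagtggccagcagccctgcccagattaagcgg
Col4a6 upstream, chrX:141474077-141474326, minus strand: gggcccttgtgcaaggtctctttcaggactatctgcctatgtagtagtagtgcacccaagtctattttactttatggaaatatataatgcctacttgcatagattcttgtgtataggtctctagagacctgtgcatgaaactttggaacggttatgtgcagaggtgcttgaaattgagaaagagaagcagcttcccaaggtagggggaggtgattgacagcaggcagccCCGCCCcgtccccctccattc
Col4a5 upstream, chrX:141475169-141475384, plus strand: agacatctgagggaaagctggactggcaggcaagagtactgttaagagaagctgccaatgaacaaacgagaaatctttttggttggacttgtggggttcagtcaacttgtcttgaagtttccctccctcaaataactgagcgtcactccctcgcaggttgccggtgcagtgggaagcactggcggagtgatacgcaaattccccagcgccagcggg
The stretch between Col4a4 and Col4a3 held 69% G and C, against a median of 54.9% in the last 71 bases before all 32851 RefSeq starts. It held no match to the GC box, to the CCAAT box (CCAAT or ATTGG) or to the TATA box (TATAAA or TTTATA), which 20.7%, 13.3% and 4.41% of all such stretches hold. Upstream of Col4a6, 1 GC box was found in 250 bases, a length at which 32.7% of promoters hold one, and upstream of Col4a5 there was 1 CCAAT box in 216 bases, against 30.8%.

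None of the other type IV chains passed the test, and small changes are not excluded by their standard errors. Col4a1 was at 17.3, 16.2, 12.3 and 17.5 CPM across controls and 13.3, 17.6, 18.3 and 14.3 CPM in knockouts, a log2 fold change of 0.00 (SE 0.15). Its partner Col4a2 was at 15.0 ± 2.36 and 13.9 ± 2.79 CPM (SD, n = 4 each, log2 -0.11, SE 0.17). Col4a5 was at 46.3, 49.1, 55.5 and 45.65 CPM across controls and 50.3, 60.8, 42.3 and 42.2 CPM in knockouts (log2 -0.01, SE 0.13), and Col4a6 at 56.0, 63.7, 56.1 and 43.7 CPM in the control libraries and 48.1, 53.7, 43.8 and 49.1 CPM in the knockout libraries (log2 -0.17, SE 0.12). In every one of these chains the groups overlapped. Because Col4a3 fell and Col4a5 did not pass, the ratio of Col4a5 to Col4a3 per kb went from 18.7 to 28.8 in controls to 49.7 to 73.7 in knockouts. Its exact two-sided permutation p was 0.0286, the smallest that 70 regroupings allow, with an adjusted p of 0.0762 over 8 ratios, which does not pass. The ratio reuses the values of the called Col4a3, and the 8 ratios were chosen after the values were seen. By contrast the ratio of Col4a3 to Col4a4 was 1.09 ± 0.0835 for controls and 1.25 ± 0.34 for knockouts (SD, n = 4 each, exact two-sided permutation p = 0.600). Col18a1 was at 232, 219, 302 and 209 CPM across controls and 246, 197, 228 and 192 CPM in knockouts, which overlap (log2 -0.16, SE 0.13). Col15a1, a collagen of vessel and muscle basement membranes, had 0 to 21 counts per library and was not tested.

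Of the 7 fibrillar collagens tested, Col5a2 fell and 6 did not pass. Type V collagen regulates the diameter of collagen fibrils, and Col5a2 encodes one of its chains. Col5a2 (chromosome 1, 45374321 to 45503282, minus strand) was at 4.72, 7.86, 10.7 and 5.32 CPM across controls and at 0.895, 1.41, 2.78 and 0.852 CPM in knockouts. The highest knockout was under the lowest control, with a log2 fold change of -2.26 (SE 0.41, 4.79-fold lower, edgeR adjusted p = 0.01203). It was called in 20 of 21 alternative fits and in all 8 that left out 1 library, and lost its call in the 5 Y-negative libraries (log2 -1.58, adjusted p = 0.08999). Col5a1, the main partner chain, was at 5.39, 4.67, 3.57 and 4.73 CPM across controls and 3.40, 3.40, 4.27 and 2.40 CPM in knockouts, which overlap (log2 -0.45, SE 0.21, adjusted p = 0.2067). Per kb, the ratio of Col5a1 to Col5a2 was 0.263 to 0.900 in controls and 1.21 to 2.99 in knockouts. Its exact two-sided permutation p was 0.0286, the smallest that 70 regroupings allow. The adjusted p was 0.0762 over the 8 chain ratios computed, which does not pass. This ratio reuses the values of the called Col5a2, and the 8 ratios were chosen after the values were seen.

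Type I and type III collagens, the bulk of dermal fibres, varied more within the knockouts than between the genotypes. Col1a1 was at 1.59, 4.25, 2.96 and 3.56 CPM across controls and at 8.91, 4.19, 0.744 and 0.758 CPM in knockouts. Col1a2 was at 2.96, 4.47, 4.65 and 5.32 CPM across controls and at 8.59, 2.32, 1.07 and 0.947 CPM in knockouts. Col3a1 was at 0.698, 1.5, 2.16 and 2.02 CPM across controls and at 4.87, 1.60, 0.323 and 0.0947 CPM in knockouts. In all 3 genes knockout replicate 1 was the highest of the 8 libraries and knockout replicates 3 and 4 were the lowest, so the knockouts lay on both sides of the controls. Summed over the 3 genes, controls were at 5.25 to 10.9 CPM and knockouts at 1.80 to 22.4 CPM. The log2 fold changes were 0.24 (SE 0.75), -0.44 (SE 0.66) and 0.10 (SE 0.91), and none passed (adjusted p = 0.8753, 0.7159 and 0.9562). Without knockout replicate 1, those of Col1a1 and Col3a1 changed sign, to -0.69 and -1.23, and Col1a2 passed as lower (log2 -1.58, adjusted p = 0.03248). Col11a2, a chain of type XI collagen of cartilage that some epithelia also express, was at 3.21, 2.68, 7.95 and 3.80 CPM across controls and at 2.72, 2.49, 2.00 and 2.15 CPM in knockouts (log2 -0.91, adjusted p = 0.1036). Col27a1 was at 0.224 ± 0.0794 and 0.399 ± 0.198 CPM (SD, n = 4 each, adjusted p = 0.2859).

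Both chains of type VIII collagen, a short-chain collagen known from vessels and from Descemet's membrane of the cornea, were lower in the knockout. Col8a2 (chromosome 4, 126286793 to 126314330, plus strand) was at 11.0, 20.7, 19.7 and 16.7 CPM across controls and at 4.30, 4.58, 10.5 and 5.43 CPM in knockouts. Knockout replicate 3 came close to control replicate 1, and the other knockouts were far under the controls (log2 -1.45, SE 0.31, edgeR adjusted p = 0.02231). Col8a1 (chromosome 16, 57624258 to 57754737, minus strand) was at 5.58, 6.58, 4.53 and 4.29 CPM across controls and at 3.11, 3.21, 2.23 and 3.47 CPM in knockouts. The groups did not overlap (log2 -0.80, SE 0.20, edgeR adjusted p = 0.03713). Leaving out 1 library at a time, Col8a2 lost its call in 4 of 8 fits (without control replicate 2 and without knockout replicates 1, 2 and 4, adjusted p = 0.05678 to 0.06991) and Col8a1 in 6 of 8 (control replicates 1 and 2 and every knockout replicate, adjusted p = 0.0544 to 0.1084). With a term for Y-linked transcripts Col8a1 lost its call (log2 -0.77, adjusted p = 0.05601) and Col8a2 kept it (0.04654). In the 5 Y-negative libraries, 2 controls and 3 knockouts, neither passed (log2 -1.01, adjusted p = 0.2313, and log2 -0.73, adjusted p = 0.1917). As the 2 genes lie on different chromosomes and fell together, their upstream bases are shown, with GC boxes in capitals.
Col8a2 upstream, chr4:126286544-126286792, plus strand: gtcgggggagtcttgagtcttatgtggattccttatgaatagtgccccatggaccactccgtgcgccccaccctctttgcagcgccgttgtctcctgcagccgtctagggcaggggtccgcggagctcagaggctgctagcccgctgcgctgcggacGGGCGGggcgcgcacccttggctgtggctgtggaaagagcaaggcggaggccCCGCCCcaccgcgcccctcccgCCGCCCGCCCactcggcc
Col8a1 upstream, chr16:57754738-57754987, minus strand: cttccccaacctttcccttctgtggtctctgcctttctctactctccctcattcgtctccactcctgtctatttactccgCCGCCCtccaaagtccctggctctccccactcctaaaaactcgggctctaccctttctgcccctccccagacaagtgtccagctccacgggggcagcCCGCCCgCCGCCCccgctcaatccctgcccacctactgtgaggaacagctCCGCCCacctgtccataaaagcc
Each held 4 GC box matches, 2 of which overlap in Col8a2, and neither held a CCAAT or TATA box as spelled above. Of all RefSeq promoters, 32.7% hold at least 1 GC box in the same length, 33.8% a CCAAT box and 12.3 to 12.4% a TATA box. The share that holds 4 or more GC boxes was not counted. The stretches were 69.9% (Col8a2) and 60.8% (Col8a1) G and C, against medians of 52.2% and 52.4% at these lengths. Col10a1, the third member of this class and a marker of hypertrophic cartilage, had 1 to 7 counts per library and was not tested.

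**Figure D3:**
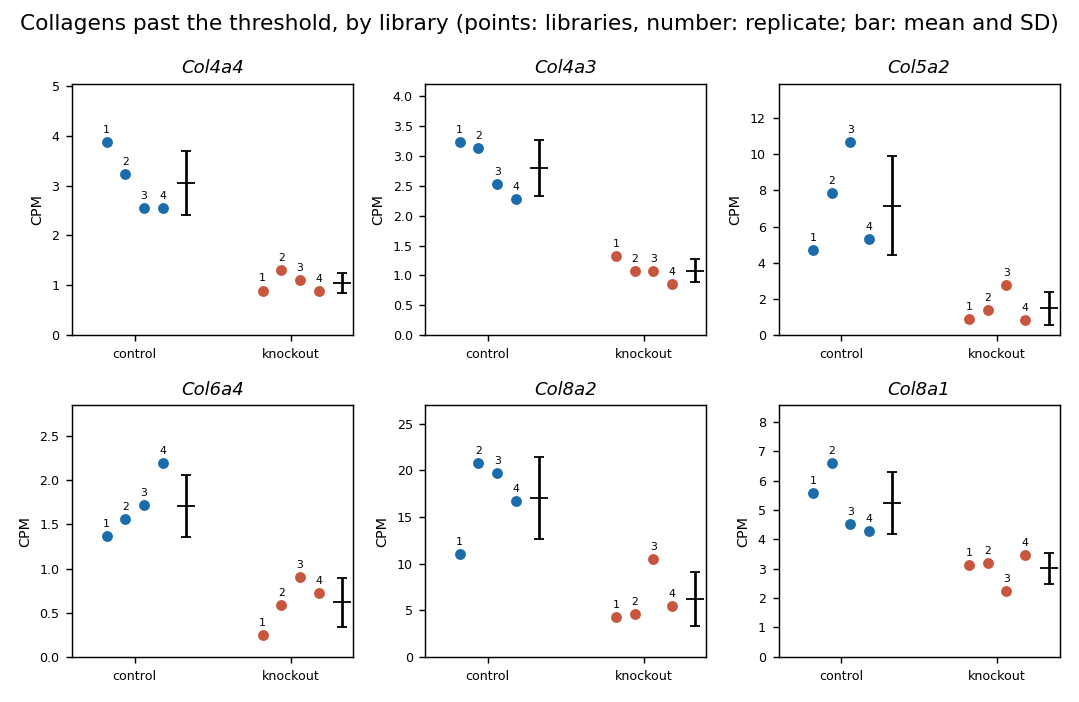
CPM of the 6 collagens past the threshold, with each library as a point numbered by replicate and the mean and SD of each genotype as a bar (n = 4 each, axes from 0). Knockout libraries lie under all control libraries in every panel. For Col8a1 and Col8a2 the highest knockouts are at 3.47 and 10.5 CPM and the lowest controls at 4.29 and 11.0 CPM.

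The chains of type VI collagen form beaded filaments next to basement membranes, and of the 3 tested only Col6a4 passed. The log2 fold change was negative for Col6a4 and Col6a2 and positive for Col6a1. Col6a4 (chromosome 9, 105989454 to 106096783, minus strand), whose chain is related to that of Col6a3, fell. It was at 1.37, 1.57, 1.73 and 2.19 CPM across controls and at 0.251, 0.589, 0.905 and 0.726 CPM in knockouts, with no overlap (log2 -1.46, SE 0.34, edgeR adjusted p = 0.02808). Its call was lost without control replicates 2 and 4 and without knockout replicates 2 and 4 (adjusted p = 0.05216 to 0.08252), and in the 5 Y-negative libraries (adjusted p = 0.1135). Col6a1, the most abundant chain, was at 32.5, 32.2, 35.1 and 30.9 CPM across controls and at 30.4, 42.2, 105 and 80.2 CPM in knockouts. Controls were tight, while knockout replicates 3 and 4 were high and knockout replicate 1 lay just under the lowest control (log2 0.98, SE 0.35, edgeR adjusted p = 0.1167). Without knockout replicate 1 Col6a1 passed as higher (log2 1.22, adjusted p = 0.03574), and DESeq2 called it with all libraries (adjusted p = 0.01099). Col6a2, which pairs with Col6a1 in the filament, was at 5.22, 8.15, 7.70 and 4.47 CPM across controls and 2.68, 3.47, 7.18 and 3.88 CPM in knockouts (log2 -0.57, SE 0.31, adjusted p = 0.2824). The ratio of Col6a1 to Col6a2 per kb was 4.49 to 7.86 in controls and 12.9 to 23.4 in knockouts, without overlap (exact two-sided permutation p = 0.0286, adjusted p = 0.0762 over the 8 ratios). The adjusted p does not pass, and the 8 ratios were chosen after the values were seen. Col6a3, the third chain of the common filament, had only 1 to 13 counts per library, and Col6a6 had 0 to 13.

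Among fibril-associated collagens none of 5 tested passed, beside 4.54% called lower and 4.33% higher over all tested genes. Col12a1, which bridges fibrils, was at 97.2, 145, 247 and 127 CPM across controls and at 115, 80.8, 63.2 and 69.3 CPM in knockouts. Control replicate 3 was the highest library and knockout replicate 1 lay above control replicate 1 (log2 -0.91, SE 0.30, edgeR adjusted p = 0.09367). DESeq2 called Col12a1 lower (adjusted p = 0.01152), as did the fit with a term for Y-linked transcripts (log2 -0.70, adjusted p = 0.04386) and the 5 Y-negative libraries (log2 -0.66, adjusted p = 0.04684). Col16a1 was at 231, 186, 194 and 145 CPM across controls and 194, 161, 146 and 166 CPM in knockouts (log2 -0.18, SE 0.14). The less abundant Col20a1 was at 4.32 ± 1.54 and 4.78 ± 0.369 CPM, Col14a1 at 0.481 ± 0.372 and 0.568 ± 0.338 CPM, and Col9a3 at 0.373 ± 0.114 and 0.542 ± 0.203 CPM (SD, n = 4 each). Of the transmembrane collagens only Col23a1 was tested. It was at 355, 182, 164 and 331 CPM across controls and 306, 203, 291 and 362 CPM in knockouts (log2 0.17, SE 0.28, adjusted p = 0.7421). Control replicates 2 and 3, both with Y-linked transcripts, had the 2 lowest values, and knockout replicate 1, which also carried them, was at 306 CPM.

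The 17 collagens that were not tested had few or no counts in these cells. Col22a1, Col26a1, Col6a5 and Col9a1 had 0 counts in all 8 libraries, which allows up to 3 counts each, or 0.0838 to 0.107 CPM (counting error only). Col11a1, Col13a1, Col19a1, Col24a1, Col25a1, Col28a1 and Col5a3 had at most 5 counts in any library. Col9a2 had 1 to 12 counts. Col2a1, the main collagen of cartilage, had 10, 6, 0 and 6 counts in controls and 8, 11, 19 and 18 in knockouts. Scaled to library size these are 0 to 0.279 CPM and 0.286 to 0.614 CPM, every knockout above every control, with no test.

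Summed by group, fibrillar collagens were at 19.2 to 32.4 CPM across controls and 8.11 to 29.96 CPM in knockouts, basement membrane collagens at 338 to 444 and 312 to 371 CPM, and other collagens at 587 to 748 and 504 to 697 CPM. The ranges of the genotypes overlapped in each group. Markers of cells that could be admixed were read beside these sums. Of 16 fibroblast markers, Mfap5 was at 0 in all libraries, Pdgfrb at 0 in 6, and Pdgfra reached at most 0.37 CPM and was 0 in knockout replicates 1 and 3. The list summed to 1242 to 2799 CPM across controls and 1509 to 1669 CPM in knockouts, but nearly all of this was Postn (1036 to 2511 CPM) and Thy1 (172 to 336 CPM), which are not restricted to fibroblasts. Without the 3 most abundant, Postn, Thy1 and Fbln1 (a choice made after seeing the values), the other 13 summed to 9.78 to 19.9 CPM across controls and 10.5 to 23.3 CPM in knockouts, with knockout replicate 1 at 17.6 CPM and knockout replicates 3 and 4 at 23.3 and 10.5 CPM. Vim and Bgn, which other cells also express, made up most of these sums, and whether admixed fibroblasts contribute to the high Col1a1, Col1a2 and Col3a1 of knockout replicate 1 was not tested. Of the 8 fibroblast markers tested, 4 had a positive and 4 a negative log2 fold change, and 1 was called, against 4.33% higher and 4.54% lower over all genes. This was Dcn, a small proteoglycan of collagen fibrils. It rose, from 0.663 ± 0.229 CPM to 1.92 ± 0.615 (means ± SD of 4 libraries, edgeR adjusted p = 0.02006), with its call lost without control replicate 2 or knockout replicate 2 (adjusted p = 0.05633 and 0.06044) and in the 5 Y-negative libraries (adjusted p = 0.08954). Mgp had all knockouts below all controls without passing (0.939 ± 0.316 and 0.440 ± 0.0828 CPM, SD, n = 4 each, edgeR adjusted p = 0.06083). With a term for the summed fibroblast markers 6 collagens were called lower, and 5 with a term for the 13, in which Col8a1 was lost (adjusted p = 0.05754). Neither term measures fibroblast content alone, as other cells also express the genes that make up most of both sums.

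Endothelial markers summed to 1.44 to 6.04 CPM across controls and 0.821 to 2.72 CPM in knockouts, led by Vwf and Pecam1. Of these markers none of 3 tested was called, beside 4.54% lower and 4.33% higher over all tested genes. Of 8 pericyte and smooth muscle markers, Des was at 0 in all libraries and Rgs5 reached at most 0.07 CPM. This list summed to 153 to 206 CPM across controls and 190 to 238 CPM in knockouts, mostly Notch3 and Cspg4, which keratinocytes also express. Mcam (7.22 ± 1.12 to 27.7 ± 1.93 CPM) and Acta2 (1.13 ± 0.365 to 3.60 ± 0.730 CPM) rose (SD, n = 4 each, edgeR adjusted p = 7.34e-05 and 0.007225). Tagln, a smooth muscle gene, had all knockouts below all controls without passing (2.01 ± 0.286 and 1.36 ± 0.136 CPM, SD, n = 4 each, edgeR adjusted p = 0.1172), and the log2 fold change of Cspg4 was -0.19. Schwann cell and melanocyte markers were at 6.75 to 8.40 and 7.09 to 8.54 CPM (led by Pmel and Tyr), leukocyte markers at 22.4 to 65.3 and 22.0 to 55.6 CPM (led by Cd74 and H2-Ab1), and adipocyte markers at 0.140 to 0.770 and 0.0947 to 0.143 CPM. Control replicate 3, the highest library for Col5a2, Col11a2 and Col12a1, was also the highest for the endothelial and adipocyte sums, for Postn (2511 CPM) and Fbln1 (46.8 CPM), and, chosen after seeing the values, for Ddr2 (19.9 CPM, against 1.37 to 5.16 in the others) and P4ha3 (3.27 CPM, against 0 to 0.179). In control replicate 3 the pericyte and smooth muscle (160 CPM), Schwann cell and melanocyte (7.02 CPM) and leukocyte sums (47.7 CPM) were not the highest. Nor was the sum of the 13 fibroblast markers left without Postn, Thy1 and Fbln1 (19.9 CPM, against 23.3 in knockout replicate 3). Without control replicate 3, Col5a2 was still called lower (log2 -2.00, edgeR adjusted p = 0.01766). The part of admixed cells in the collagen differences was not tested, and in bulk RNA fewer cells of a type cannot be told apart from less RNA per cell.

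**Figure D4:**
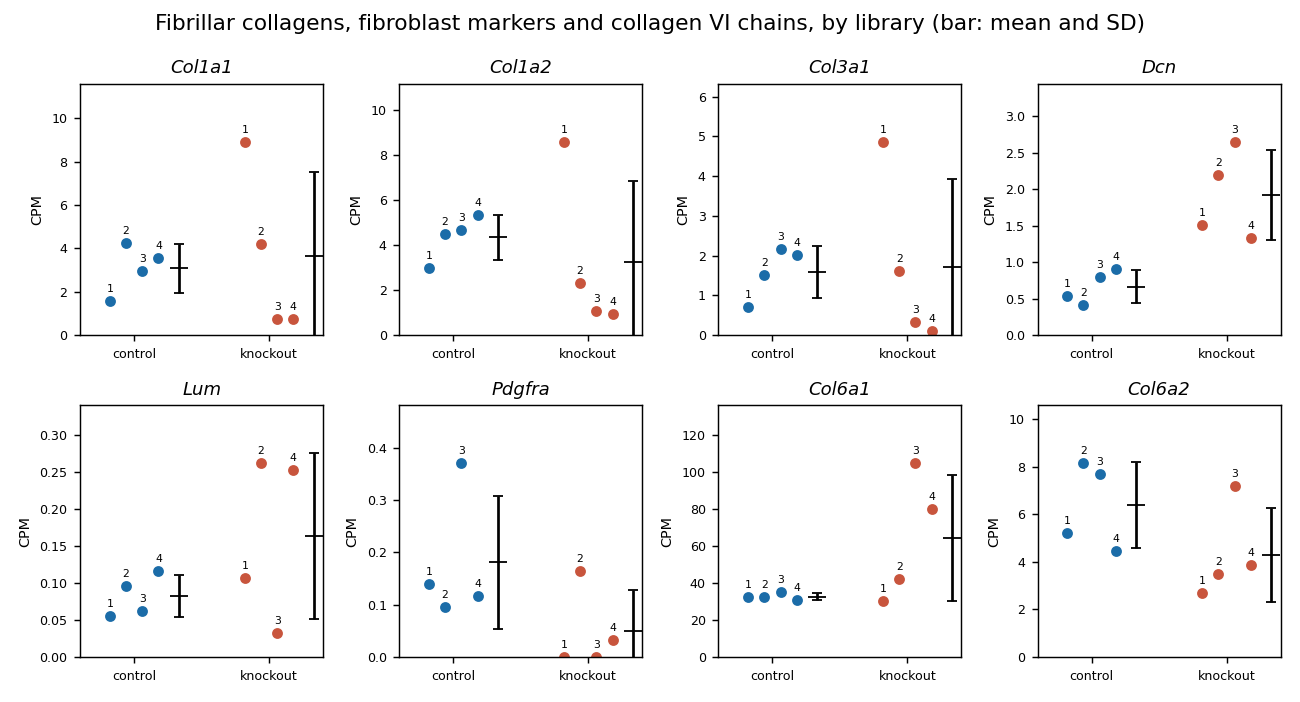
CPM of Col1a1, Col1a2 and Col3a1, of the fibroblast markers Dcn, Lum and Pdgfra, and of the type VI chains Col6a1 and Col6a2, with each library as a numbered point and the mean and SD as a bar (n = 4 each, bars cut at 0). Knockout replicate 1 is the highest library for the 3 fibrillar collagens, whereas for Dcn and Col6a1 knockout replicate 3 is the highest, at 2.65 and 105 CPM.

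Genes that process and crosslink collagen changed in both directions. Of 32 on the list 25 were tested, and 5 were lower, 2 higher and 18 not called (median log2 fold change -0.34), beside 4.54% lower and 4.33% higher over all tested genes. Of the propeptidases that trim procollagen, 3 fell: Bmp1 from 89.9 ± 9.21 to 64.8 ± 4.67 CPM (edgeR adjusted p = 0.01445), its relative Tll1 from 0.878 ± 0.311 to 0.121 ± 0.0939 CPM (adjusted p = 0.01474), and Adamts3 from 0.534 ± 0.149 CPM to 0.0815 ± 0.0551 (means ± SD of 4 libraries, adjusted p = 0.008869). Tll1 and Adamts3 had 0 to 7 and 1 to 5 counts per knockout library and passed the filter on low counts through the controls alone. Adamts2 and Adamts14 of the same family were not called. P3h1 and Crtap, which form 1 prolyl 3-hydroxylase complex with Ppib, also fell. P3h1 went from 5.04 ± 1.21 to 2.56 ± 0.406 CPM and Crtap from 41.6 ± 6.16 to 29.2 ± 3.83 CPM (SD, n = 4 each, edgeR adjusted p = 0.02288 and 0.03762). Ppib was at 76.8 ± 5.96 and 80.8 ± 7.28 CPM and was not called (SD, n = 4 each, edgeR adjusted p = 0.655). Leaving out 1 library, P3h1 lost its call in 4 of 8 fits (control replicate 2 and knockout replicates 1, 2 and 4) and Crtap in 6 of 8 (control replicates 2, 3 and 4 and knockout replicates 2, 3 and 4). Crtap was not called in 11 of 21 alternative fits in all, among them those with a Y-linked term (adjusted p = 0.05261) and a fibroblast term (0.05777). The lysyl hydroxylase Plod1 rose from 42.3 ± 1.60 to 60.6 ± 6.51 CPM (1.43-fold, adjusted p = 0.008913), as did P3h4, a partner protein of lysyl hydroxylation, from 17.8 ± 1.34 to 28.2 ± 4.26 CPM (1.59-fold, SD, n = 4 each, adjusted p = 0.01164). Tll1, P3h1 and Crtap were named after their values were seen. In the 5 Y-negative libraries all 7 lost their call (adjusted p = 0.05059 for Plod1 to 0.2659 for P3h1), with log2 fold changes of 0.57 for Plod1, 0.70 for P3h4, -0.43 for Bmp1, -2.25 for Adamts3, -2.10 for Tll1, -0.57 for Crtap and -0.62 for P3h1.

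None of the 7 collagen receptors tested was called by edgeR, beside 4.54% lower and 4.33% higher over all tested genes. None had an unadjusted edgeR p under 0.05, which 3412 of all 13016 tested genes had. The integrin beta chain Itgb1 was at 359 ± 50.9 and 411 ± 107 CPM, and the discoidin receptor Ddr1 at 351 ± 25.1 and 311 ± 16.0 CPM (SD, n = 4 each). Ddr1 had all knockouts below all controls, as had 9.00% of all tested genes, and did not pass (edgeR adjusted p = 0.2432). Among 15 tested non-collagen genes of basement membranes, Frem2, an extracellular matrix protein of the Fraser complex, fell from 109 ± 13.2 CPM to 55.4 ± 14.7 (means ± SD of 4 libraries, 1.97-fold lower, edgeR adjusted p = 0.01353), and 14 did not pass, beside the 4.54% called lower over all tested genes. Its call was lost in the 5 Y-negative libraries (log2 -1.05, adjusted p = 0.0987), and its log2 fold change was -1.10 to -0.82 over all 21 alternative fits. Of the 15 non-collagen genes, 6 had an unadjusted edgeR p under 0.05. Next to Frem2 by p were Fras1 (log2 -1.13, SE 0.35, adjusted p = 0.07207) and Lama1 (log2 1.33, SE 0.42, adjusted p = 0.08337), neither of them called.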

How the data were processed

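RNA-seq of keratinocytes was given as whole-number counts per gene symbol, which the authors deposited without normalization. Tools named, per the submitters' processing notes, are TopHat2 2.1.0, Trimmomatic 0.35, SAMtools 0.1.18 and FastQC 0.11.4, with build mm10; the counting tool and its strand setting are not given in the sources used here. Lines that name no gene (15.7 to 21.7% of reads outside genes, 0.918 to 1.11% ambiguous) were left out. Genes were filtered with filterByExpr by group (13016 kept) and scaled by TMM, and CPM use those sizes. The test was edgeR's quasi-likelihood test (edgeR 4.0.16, R 4.3.3) with genotype as its term, Benjamini-Hochberg adjusted over all tested genes at 0.05. Alternatives used DESeq2 1.42.0, limma-voom (limma 3.58.1), other scalings and filters, extra terms and left-out libraries. The steps were tested on simulated counts. Loci and lengths come from GENCODE M21. Values in every library are given for called collagens and the 4 highest per group. Members and lists were chosen with earlier results of these data known.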

Additional observations from a re-analysis of the deposited data

Results flagged for a closer look

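Of 84 groups of 4 libraries checked, 2 held a library far from the other 3, and chance gives about 1 in 20. Col20a1 was at 6.62 CPM in control replicate 1, and the next control was at 3.77 CPM. The integrin gene Itgb1 was at 571 CPM in knockout replicate 1, and the next knockout was at 378 CPM.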

How the results depend on the processing

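Over 21 alternative fits, 520 values of single collagens were recomputed, of which 460 kept their direction and their side of the threshold. 21 lost and 7 gained a call, and 32 changed direction, none of which was called under the alternative. The number of collagens called lower was 6, with 3 to 6 when 1 library was left out, and the number called higher was 0, with 0 to 1. DESeq2 called 1 higher, but over all genes it called 1093 higher, against 563 in the main fit. The 5 libraries without Y-linked transcripts, an alternative chosen after seeing the data, gave 3 lower. Log2 fold changes with the other sign were, for Col4a5, 0.0098 (RLE scaling), 0.0097 (no filter), 0.0098 (DESeq2), 0.029 (Y-linked term), 0.037 (fibroblast term) and 0.076 (5 libraries). For Col4a1 these values were -0.098 (library totals), -0.046 (upper quartile), -0.0013 (1 CPM filter), -0.072 (Y-linked term), -0.046 (fibroblast term) and -0.056 (5 libraries). Col3a1 was at -0.058 (library totals), -1.03 (limma-voom), -0.74 (block) and -1.01 (5 libraries), and Col1a1 at -0.45, -0.42 and -0.44 in the last 3 of these. In the 5 libraries Col23a1 was at -0.27 and Col20a1 at -0.10. Leaving out 1 library at a time gave -0.13 to 0.068 for Col4a5, -0.099 to 0.087 for Col4a1, -1.23 to 0.51 for Col3a1, -0.69 to 0.59 for Col1a1 and -0.27 to 0.77 for Col14a1. The cause was not tested. With the replicate number as a block, 5 collagens were lower, without Col8a1 (edgeR adjusted p = 0.06799), and Crtap was not called (0.08662). Over all genes this fit called 348 lower and 375 higher. The numbers did not pair the libraries: deviations of same-numbered libraries correlated at -0.23 to -0.05. The 17 collagens not tested had at most 21 counts in any library.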
